A study of Mus musculus with 9 samples.

Results

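Fibroblast growth factors (FGFs), their receptors and the Sprouty inhibitors were followed in explanted neonatal mouse aortic valves exposed to retinoic acid or to a blocker of its receptors. The set held 10 genes: the ligands Fgf2, Fgf7, Fgf9, Fgf10 and Fgf18, the receptors Fgfr1 and Fgfr2, and the feedback inhibitors Spry1, Spry2 and Spry4. Each was read by 1 probe set whose platform annotation names that gene alone, 10 of the 23397 probe sets with a gene symbol. The valves came from C57BL/6J pups at postnatal day 1, and valves of 5 to 6 pups went into each pool, cultured on floating filters for 48 hours. There were 3 groups of 3 pools, with 1 array per pool. The ATRA group received all-trans retinoic acid at 1 µmol/L, dissolved in DMSO. The LE540 group received LE540, an antagonist of the retinoic acid receptors, at a dose and in a vehicle that the labels do not give. The DMSO group received the solvent alone at 0.001%.

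FGFs are secreted proteins that bind heparan sulphate in the matrix and activate receptor tyrosine kinases at the cell surface. The receptors signal through the Ras-ERK cascade, which switches on ETS family transcription factors and also its own inhibitors, among them the Sprouty proteins and the phosphatase Dusp6. In the heart FGFs take part in growth of the outflow tract and of the endocardial cushions, the tissue from which valves form, and retinoic acid is a known regulator of FGF genes in embryos.

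The median intensity ranged over 123.61 to 128.13 among arrays, and their pairwise correlations over genes were 0.956 to 0.991. LE540 replicate 1 stood apart on the first principal component, at 63.7, with the other arrays between -21.5 and 13.9. Marker values were averaged over the 9 arrays and set against the array median. Those of valve interstitial cells were above it in 8 of 8 cases and those of endothelium in 9 of 10. Cardiomyocyte markers were so in 10 of 10 and macrophage markers in 7 of 7. Single markers that averaged above it lay below it on some arrays, such as Emcn of endothelium on LE540 replicate 1 (47). On average the arrays thus read a mixture of cells, in which fewer cells of a type and less RNA per cell cannot be told apart. Xist, the RNA of the inactive X chromosome in females, read 85.7 to 1393 in ATRA, 61.6 to 1652 in LE540 and 2294 to 2903 in DMSO arrays. Of 5 retinoic acid target genes 3 passed upward in ATRA vs DMSO (Tgm2, Dhrs3 and Cyp26a1), 4 in ATRA vs LE540 (these and Rarb) and 0 in LE540 vs DMSO. In ATRA vs DMSO Tgm2 passed under 23 of 23 alternative settings, Dhrs3 under 12 and Cyp26a1 under 11. Both of these lost the call without ATRA replicate 1, LE540 replicate 2, DMSO replicate 1 or DMSO replicate 3. Rarb passed in ATRA vs LE540 under 14 of 23 settings.

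All values below are RMA intensities on a linear scale, one per array, given for replicates 1, 2 and 3 in that order. Differences are on the log2 scale from a limma fit to all 9 arrays, each with its standard error (SE) or 95% confidence interval. Passing means an adjusted p under 0.1 (Benjamini-Hochberg, over all 23397 probe sets). LE540 vs DMSO and ATRA vs DMSO share the DMSO arrays, and each shares a group with ATRA vs LE540.

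Fgf2 was the 1 gene of the 10 that passed, and it did so in ATRA vs LE540, where 0.603% of all probe sets passed. Fgf2 (probe set 10491699), basic fibroblast growth factor, is a heparin-binding mitogen of fibroblasts and endothelial cells. It read 674, 869.5 and 900.3 in the ATRA arrays, 260.1, 367 and 346 in the LE540 arrays and 586, 823 and 586 in the DMSO arrays. Every LE540 array lay below every array of the other groups, whereas the ATRA and DMSO arrays overlapped. Fgf2 averaged 815 ± 123 in ATRA and 324 ± 56.5 in LE540 explants (SD, n = 3 each), and rose 2.52-fold in ATRA relative to LE540 (log2 difference 1.33, SE 0.19, limma adjusted p = 0.0402). The 3 pairs of equal replicate number differed by 1.37, 1.25 and 1.38 log2.

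In LE540 vs DMSO the log2 difference of Fgf2 was -1.03 (SE 0.19, 95% confidence interval -1.47 to -0.60), from means of 324 ± 56.5 in LE540 and 665 ± 137 in DMSO arrays (SD, n = 3 each). It did not pass (adjusted p = 0.235), although its p ranked 49 of 23397. In ATRA vs DMSO the difference was 0.30 (interval -0.14 to 0.74, adjusted p = 0.999).

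In ATRA vs DMSO 0 of the 10 genes passed, where 0.0812% of all probe sets did (19, or 29 with the replicate number as a block), and 0 had an unadjusted limma p under 0.05, where 4.7% did. With the block Fgf18 had an unadjusted limma p of 0.0354 (adjusted p = 0.729). Some other settings also gave such a p without a call. Among them were array weights (Fgf2, Fgf18, Fgfr1 and Spry4) and a covariate for Y-linked genes (Fgf2 and Fgfr2). The median log2 difference of the 10 was 0.08, against -0.006 over all probe sets, and 1 gene, Spry4, had ATRA arrays wholly above DMSO arrays, as 4.97% of probe sets did. In LE540 vs DMSO 0 of 10 passed, where 0.0299% of all did (7, but 98 without LE540 replicate 2, 297 without LE540 replicate 3 and 0 to 12 without any other single array), and 2 (Fgf2 and Fgfr1) had an unadjusted p under 0.05, where 8.8% did. The median difference was -0.18, against 0.02 over all, and Fgf2 and Fgf7 had LE540 arrays wholly below DMSO arrays, as 5.86% of probe sets did. For ATRA vs LE540, 1 of 10 passed, where 0.603% of all did (141, or 221 with the replicate block). The median difference was 0.07, against -0.03 over all, with 7 of 10 higher, where 43.1% of all were. There 3 of 10 (Fgf2, Fgf18 and Spry4) had an unadjusted p under 0.05, where 9.54% did, and 2 of 10 (Fgf2 and Fgf18) had ATRA arrays wholly above LE540 arrays, where 5.24% did.

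**Figure D1:**
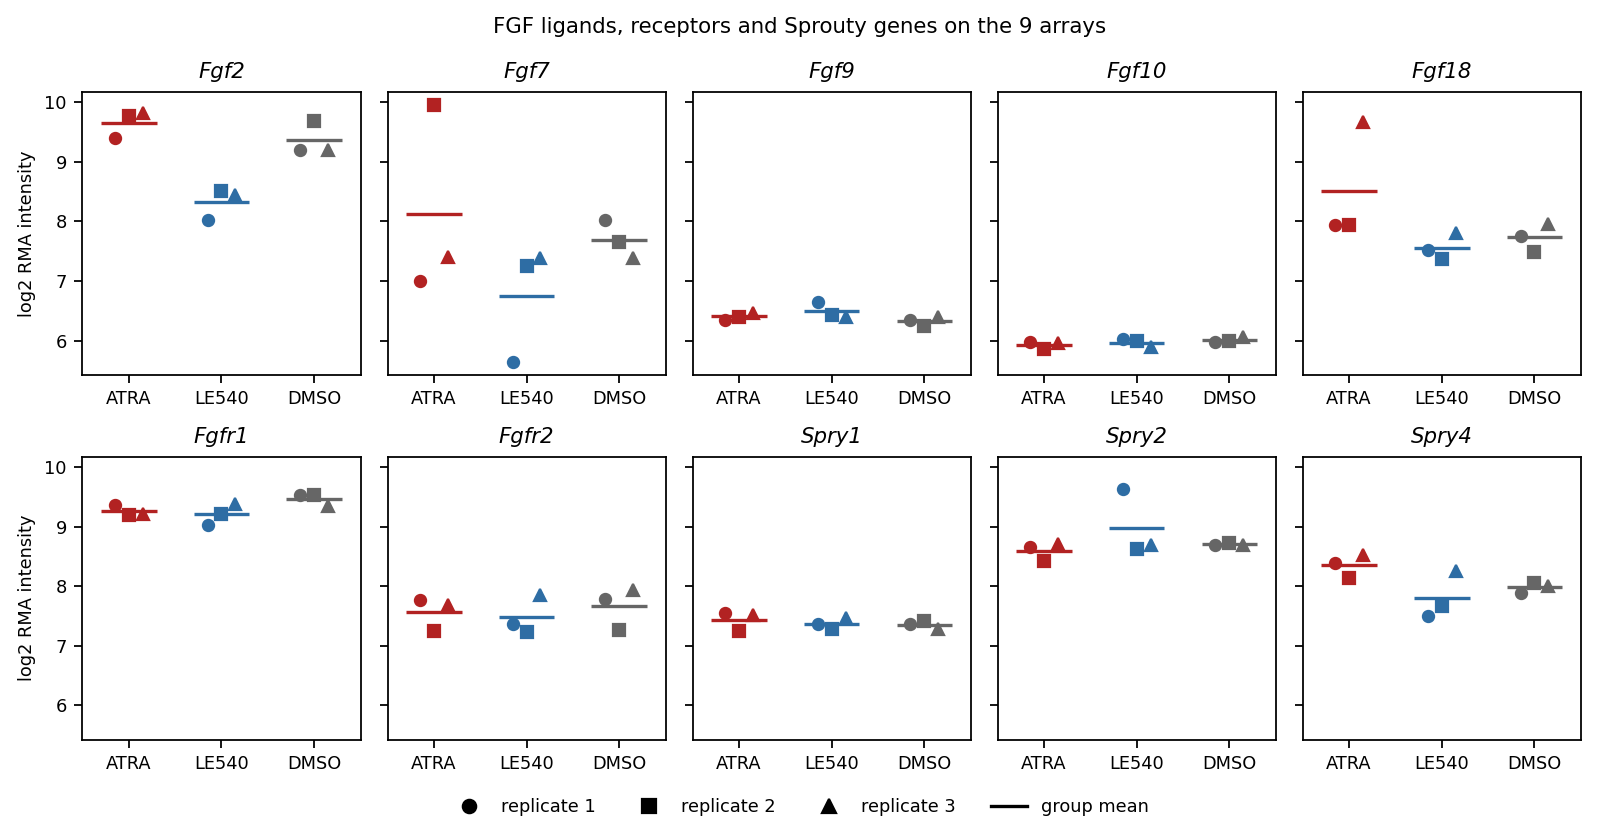
Log2 RMA intensity of the 10 genes in ATRA, LE540 and DMSO arrays (left to right in each panel), with symbols for replicates 1 to 3 and lines for group means. The 3 LE540 points of Fgf2 lie below its 6 other points, while Fgf7, Fgf18 and Spry2 each have 1 array far above the rest.

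The Fgf2 call in ATRA vs LE540 depended on single arrays and on the spread pooled over 3 groups. It was lost without ATRA replicate 3 (log2 difference 1.255, adjusted p = 0.14), without LE540 replicate 1 (1.18, adjusted p = 0.101) and with only the 2 groups compared in the fit (1.33, adjusted p = 0.126). The difference itself lay between 1.116 and 1.464 under all 23 alternative settings, of which 18 kept the call.

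Marker sums of some cell types also separated ATRA from LE540 arrays, but these sums were not tested and weigh their brightest genes most. Few single markers passed in ATRA vs LE540, where 0.603% of all probe sets did. These were 1 of the 8 epithelial and mesothelial markers, 0 of the 8 interstitial markers (lowest limma adjusted p = 0.303) and 0 of the 7 smooth muscle markers (0.344). The summed intensity of 7 smooth muscle markers was 3578 to 7183 in ATRA, 1959 to 3065 in LE540 and 2017 to 3860 in DMSO arrays. That of 8 valve interstitial markers was 23110 to 24686 in ATRA, 13357 to 21185 in LE540 and 17685 to 22546 in DMSO arrays. The sum of 8 epithelial and mesothelial markers, of which 3 averaged above the array median, was 1148 to 1191 in ATRA, 808 to 923 in LE540 and 808 to 905 in DMSO arrays. Krt18, a keratin of simple epithelia, averaged 297 in ATRA and 83.1 in LE540 arrays (limma adjusted p = 0.0313). Krt19, another keratin, averaged 149.9 in ATRA and 84.0 in LE540 arrays (adjusted p = 0.179). Krt8, also a keratin, differed by 0.25 log2 between ATRA and LE540 (adjusted p = 0.713) and its arrays overlapped. Msln, Upk3b, Wt1, Cdh1 and Epcam differed by -0.18 to 0.12 log2 and their arrays overlapped. These 3 sums separated ATRA from LE540 arrays as Fgf2 did, though none of them put every LE540 array below every DMSO array. Unlike Fgf2, the interstitial and epithelial sums also put every ATRA array above every DMSO array. Single markers did not all follow. Vim, Sox9, Lum and Twist1 of the interstitial list overlapped between ATRA and LE540 arrays, with Twist1 lower in ATRA (log2 difference -0.29). So did Myh11, Cnn1, Smtn and Myocd of the smooth muscle list. The sums of the endothelial markers (2259 to 5489 in ATRA, 1355 to 3014 in LE540 and 1697 to 3224 in DMSO arrays) and of the cardiomyocyte markers (11384 to 19333 in ATRA, 11198 to 19331 in LE540 and 11739 to 23953 in DMSO arrays) overlapped between groups. With a smooth muscle score as a covariate the Fgf2 difference was 1.178 (adjusted p = 0.422), with a cardiomyocyte score 1.308 (0.134), with an endothelial score 1.116 (0.0642) and with a Y-linked score 1.416 (0.0256). The part of interstitial and epithelial markers in the result was not tested.

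**Figure D2:**
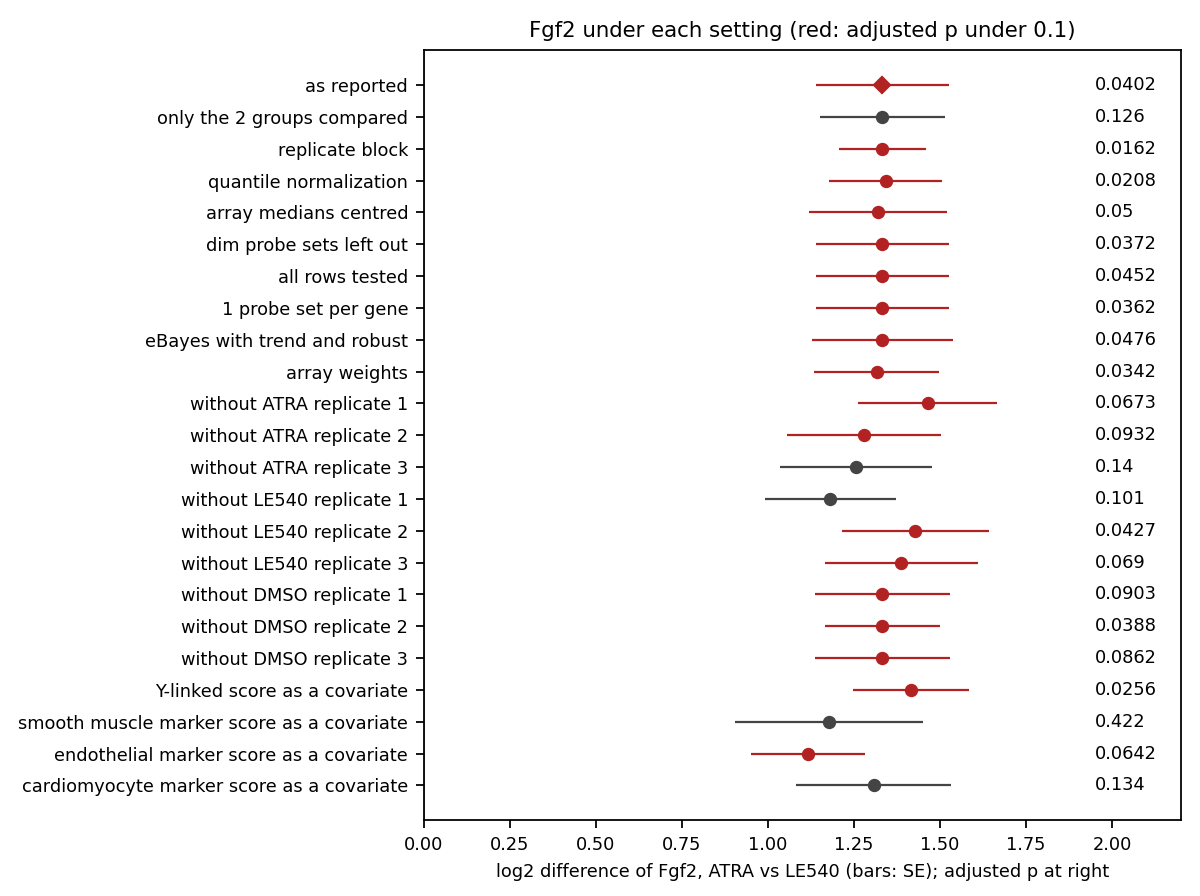
Log2 difference of Fgf2 in ATRA vs LE540 arrays (points, with SE bars) as reported and under the other settings, with the adjusted p at right and passing settings in red. The stricter threshold, which leaves the difference as it is, has no point. The Fgf2 estimate stays between 1.116 and 1.464 while the adjusted p runs from 0.0162 to 0.422.

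Fgf2 is overlapped by Nudt6, a gene on the opposite strand, whose own probe set (10497904) read 112, 127 and 127 in ATRA, 29.4, 104 and 84.4 in LE540 and 108, 122 and 98.5 in DMSO arrays. Nudt6 did not pass in ATRA vs LE540 (log2 difference 0.94, SE 0.40, adjusted p = 0.499), and its lowest value, like that of Fgf2, was in LE540 replicate 1.

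The 250 bases upstream of the transcription start are shown for Fgf2 and Fgf18, because these are the members whose ATRA arrays all lay above their LE540 arrays (5.24% of all probe sets). Sequences are from RefSeq on GRCm38.p6. Windows of 8 of the 10 genes were searched, and those of Fgfr1 and Spry4 were not, so nothing is said of these genes here. Fgf2 is at chr3:37348403-37348652 on the plus strand and Fgf18 at chr11:33147401-33147650 on the minus strand, each 5′ to 3′ in the direction of transcription. For Fgf2 the start is that of the RefSeq promoter table, and the annotated span of the gene, which joins several transcripts, begins inside the window shown. Capitals mark a half-site of the kind that retinoic acid receptors bind, searched on both strands as AGGTCA or AGTTCA, and as GGGTCA or GGTTCA.
Fgf2: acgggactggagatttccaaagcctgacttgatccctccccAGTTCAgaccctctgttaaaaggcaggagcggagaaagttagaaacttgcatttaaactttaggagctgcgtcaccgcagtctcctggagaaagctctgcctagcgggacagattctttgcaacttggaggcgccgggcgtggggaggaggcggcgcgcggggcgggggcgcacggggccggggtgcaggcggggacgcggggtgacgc
Fgf18: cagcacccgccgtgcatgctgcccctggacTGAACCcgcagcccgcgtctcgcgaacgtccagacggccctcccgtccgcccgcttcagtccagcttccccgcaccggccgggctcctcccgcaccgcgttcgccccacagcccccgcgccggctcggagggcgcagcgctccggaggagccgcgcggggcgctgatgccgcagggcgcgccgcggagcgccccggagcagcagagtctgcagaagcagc
The Fgf2 window holds AGTTCA starting 209 bases before the start, and the Fgf18 window holds GGTTCA on the opposite strand, starting 220 bases before it. Single half-sites are common: 38.6% of 32851 such windows hold at least 1 of the 4, and so did the windows of 5 of the 8 genes. No window of the 8 holds 2 half-sites in the same orientation spaced by 2 or 5 bases, the arrangement of strong retinoic acid response elements, which 0.174% and 0.0883% of all windows hold. These matches describe letters in a window, not binding.

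Fgf18 (10385036), a ligand known for its role in cartilage and bone growth, was high on 1 array. It read 245, 245 and 809.5 in ATRA, 183, 165 and 224 in LE540 and 217, 179 and 249.6 in DMSO arrays. ATRA replicate 3 was 3.24-fold above the next array, and the other ATRA arrays lay within the range of DMSO. The log2 difference was 0.95 in ATRA vs LE540 (SE 0.42, adjusted p = 0.519) and 0.78 in ATRA vs DMSO (SE 0.42, adjusted p = 0.999). Without ATRA replicate 3 these differences were 0.38 and 0.20. In LE540 vs DMSO it was -0.18 (SE 0.42, adjusted p = 0.918).

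Fgf7 (10475643), keratinocyte growth factor, is made by mesenchyme and acts on epithelia through a splice form of Fgfr2. It read 129, 996 and 170.0 in ATRA, 49.9, 152 and 167 in LE540 and 259.7, 202 and 167 in DMSO arrays. ATRA replicate 2 was 3.83-fold above the next array, and the other ATRA arrays fell within the span of the remaining arrays. The log2 difference in ATRA vs DMSO was 0.44 (95% confidence interval -1.26 to 2.13, adjusted p = 0.999) and turned to -0.48 without that array. Between ATRA and LE540 it was 1.37 (interval -0.33 to 3.07, adjusted p = 0.616), and 0.45 without ATRA replicate 2. In LE540 vs DMSO it was -0.93 (interval -2.63 to 0.76, adjusted p = 0.716), or -0.38 without LE540 replicate 1, the array with the lowest value. The LE540 arrays of Fgf7 lay below its DMSO arrays by a narrow margin, 166.83 in the highest LE540 array against 166.94 in the lowest DMSO array.

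The arrays with these high values also had the highest sum of a marker list. The lists were set beside these genes after their values were seen. ATRA replicate 2, where Fgf7 was high, had an endothelial marker sum of 5489, with 1355 to 3224 on the other arrays. It included Cdh5, the cadherin of endothelial junctions, at 1883, and Emcn, an endothelial sialomucin, at 776. Eng (469), Nfatc1 (192) and Vwf (138) were each higher on another array, and the rest of the list peaked there. The arrays numbered 2 had the highest endothelial sum of each group, but Fgf7 peaked on replicate 2 in the ATRA group alone. Fgf7 read 202 on DMSO replicate 2 against 259.7 on DMSO replicate 1, and 152 on LE540 replicate 2 against 167 on LE540 replicate 3. ATRA replicate 3, where Fgf18 was high, had a smooth muscle marker sum of 7183, with 1959 to 3860 on the other arrays. There Acta2, smooth muscle actin, read 4187, Tagln, an actin-binding protein of smooth muscle, 1483, and Cnn1 of the same list 691. The rest of the list, Myh11 (135), Smtn (482), Lmod1 (143) and Myocd (62.7), did not peak there, each being higher on another array. In DMSO arrays Fgf18 and the smooth muscle sum both peaked on replicate 3. In LE540 arrays Fgf18 was lowest on replicate 2 (165), where that sum was highest (3064.5). ATRA replicate 2 also had the highest cardiomyocyte sum of its group, 19333. In ATRA vs DMSO the log2 difference of Fgf7 was -0.344 with the endothelial score as a covariate, 0.833 with the smooth muscle score and 1.089 with the cardiomyocyte score. In ATRA vs LE540 it was 0.468, 1.83 and 2.148 with these scores in the same order. The difference of Fgf18 in ATRA vs DMSO was 0.211 with the smooth muscle score, 1.034 with the endothelial score and 0.631 with the cardiomyocyte score, and in ATRA vs LE540 it was 0.293, 1.249 and 0.778. Neither gene passed under any of them, and the direction of the shift depended on the score.

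**Figure D3:**
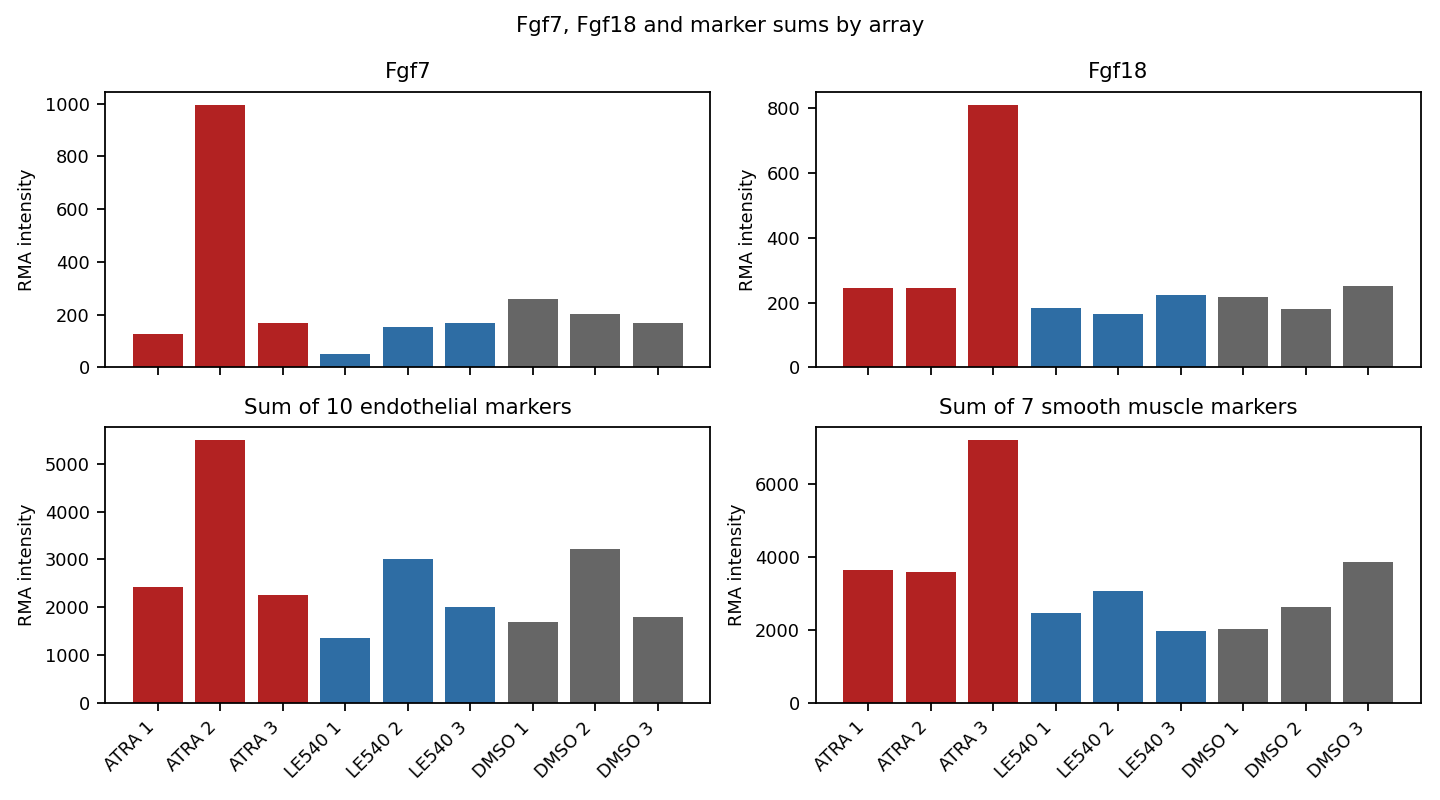
RMA intensity by array of Fgf7 above the summed intensity of 10 endothelial markers, and of Fgf18 above that of 7 smooth muscle markers, in ATRA (red), LE540 (blue) and DMSO (grey) arrays. Fgf7 and the endothelial sum peak on ATRA replicate 2 (996 and 5489), and Fgf18 and the smooth muscle sum on ATRA replicate 3 (809.5 and 7183). Each list was set beside its gene after the values were seen.

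Excess on 1 array was uncommon over all genes. Of the 10 genes 3 (Fgf7, Fgf18 and Spry2) had an array over 1.5-fold above every other array, where 4.44% of all tested probe sets did, 0.577% on ATRA replicate 2, 0.415% on ATRA replicate 3 and 1.67% on LE540 replicate 1. The 3 genes and the fold were chosen after their values were seen.

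Fgf9 and Fgf10 showed little spread. Fgf9 (10415651), a ligand that acts between epithelium, epicardium and mesenchyme, read 81.3, 84.5 and 88.3 in ATRA, 100.5, 86.2 and 84.5 in LE540 and 81.3, 76.1 and 84.5 in DMSO arrays. Its groups overlapped in every comparison, with log2 differences of 0.07 in ATRA vs DMSO, 0.16 in LE540 vs DMSO (95% confidence interval -0.07 to 0.39) and -0.09 in ATRA vs LE540. Fgf10 (10407350), a ligand of Fgfr2 that drives lung and limb outgrowth and marks cardiac progenitors of the outflow tract, read 63.0, 57.7 and 61.9 in ATRA, 64.9, 63.4 and 59.4 in LE540 and 62.8, 63.5 and 67.0 in DMSO arrays. These values lie close to the lower quartile of the arrays (57.7 to 63.0), where signal over background is unknown. Its log2 differences were -0.08 (interval -0.28 to 0.12) in ATRA vs DMSO, -0.04 (-0.24 to 0.16) in LE540 vs DMSO and -0.04 (-0.24 to 0.16) in ATRA vs LE540.

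Neither receptor passed in any comparison. Fgfr1 (10570982), the main FGF receptor of mesenchyme, read 655, 588 and 595 in ATRA, 524, 590.1 and 666 in LE540 and 737, 739 and 653 in DMSO arrays. DMSO replicates 1 and 2 were the highest, and DMSO replicate 3 fell among the treated arrays. Fgfr1 averaged 613 ± 36.6 in ATRA, 594 ± 71.1 in LE540 and 709 ± 49.2 in DMSO arrays (SD, n = 3 each). Its log2 difference was -0.21 in ATRA vs DMSO (95% confidence interval -0.47 to 0.05, adjusted p = 0.999) and -0.26 in LE540 vs DMSO (-0.52 to -0.001, adjusted p = 0.564), so neither passed. Between ATRA and LE540 it was 0.05 (-0.21 to 0.31).

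Fgfr2 (10568436), whose splice forms bind Fgf7 and Fgf10 or a broader set of ligands, read 217, 152 and 206 in ATRA, 165, 150.0 and 231 in LE540 and 220.4, 154 and 245 in DMSO arrays. Its groups overlapped throughout, and replicate 2 was the lowest array of each group. The log2 differences were -0.10 (interval -0.62 to 0.42) in ATRA vs DMSO, -0.18 (-0.70 to 0.34) in LE540 vs DMSO and 0.08 (-0.44 to 0.60) in ATRA vs LE540. The 1 probe set does not separate the splice forms.

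The Sprouty proteins are intracellular inhibitors of receptor tyrosine kinase signalling to Ras and ERK, and their genes are induced by that signalling. None of the 3 passed in any comparison with all arrays in the fit. Spry4 (10458555) read 336, 281 and 367 in ATRA, 180.4, 204 and 304 in LE540 and 237, 267 and 258 in DMSO arrays. Each ATRA array lay above each DMSO array, while LE540 replicate 3 lay within the ATRA range. Spry4 averaged 328 ± 43.8 in ATRA, 229.5 ± 65.8 in LE540 and 254 ± 15.4 in DMSO arrays (SD, n = 3 each). Its log2 difference was 0.36 in ATRA vs DMSO (SE 0.19, adjusted p = 0.999), -0.18 in LE540 vs DMSO (SE 0.19, adjusted p = 0.782) and 0.54 in ATRA vs LE540 (SE 0.19, adjusted p = 0.405). Without LE540 replicate 3 the last was 0.77 and passed (adjusted p = 0.0848).

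Spry2 (10422227) read 404, 344 and 419 in ATRA, 797, 392 and 413 in LE540 and 413, 423 and 413 in DMSO arrays. LE540 replicate 1, the array that stood apart over all genes, was 1.89-fold above the next, and the remaining 8 arrays lay between 344 and 423. The log2 difference in LE540 vs DMSO was 0.28 (SE 0.24, adjusted p = 0.734) and turned to -0.05 without that array. Between ATRA and LE540 it was -0.38 (SE 0.24, adjusted p = 0.674), or -0.055 without LE540 replicate 1. Spry1 (10491721) read 187, 153 and 184 in ATRA, 164, 155 and 178 in LE540 and 164, 172 and 156 in DMSO arrays. Its groups overlapped, and its log2 differences were 0.09 (95% confidence interval -0.17 to 0.34) in ATRA vs DMSO, 0.02 (-0.24 to 0.27) in LE540 vs DMSO and 0.07 (-0.18 to 0.32) in ATRA vs LE540. Some values of Fgf2, Fgf9, Spry1 and Spry2 are identical on different arrays, as for 37% of all tested probe sets.

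**Figure D4:**
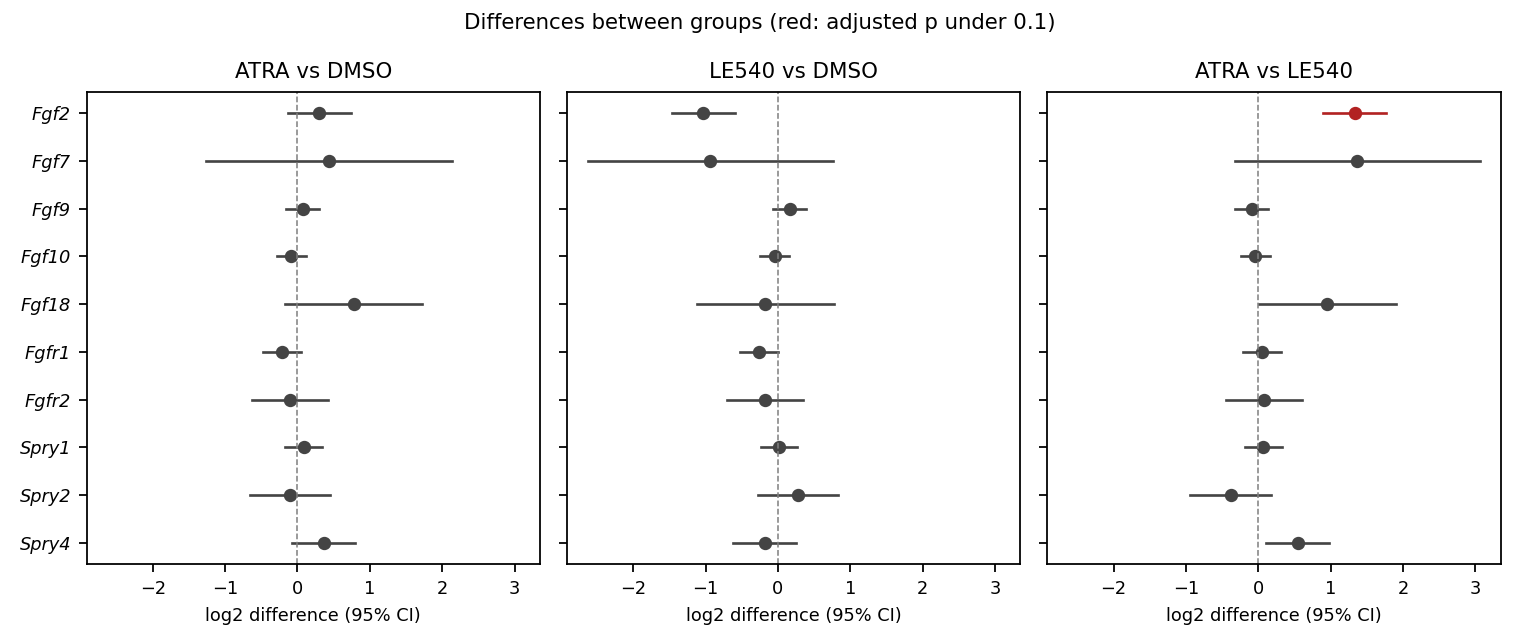
Log2 differences of the 10 genes (rows), with a panel for each comparison and 95% confidence intervals, red where the adjusted p was under 0.1. The 1 red point is Fgf2 in ATRA vs LE540, at 1.33; the widest intervals are those of Fgf7.

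The other pathway list with calls was that of heparan sulphate, the co-receptor of FGFs, and of FGF carriers. Of its 18 measured genes 1 rose and 1 fell in ATRA vs LE540, where 0.603% of all probe sets passed, and 0 passed in the comparisons with DMSO. Sulf2 (10489759), an extracellular sulphatase that removes sulphate groups from heparan sulphate, read 479, 404 and 508 in ATRA, 224, 242 and 189 in LE540 and 325, 279 and 253 in DMSO arrays. The 3 groups did not overlap, with LE540 lowest. Over all probe sets 5.24% had ATRA arrays wholly above LE540 arrays, 4.97% ATRA above DMSO arrays and 5.86% LE540 below DMSO arrays. The share with all 3 at once was not counted. Sulf2 rose 2.13-fold in ATRA relative to LE540 (log2 difference 1.09, SE 0.14, adjusted p = 0.0264). It differed by 0.70 in ATRA vs DMSO (SE 0.14, adjusted p = 0.345) and by -0.39 in LE540 vs DMSO (SE 0.14, adjusted p = 0.541). The Sulf2 call was lost in 4 settings, among them without ATRA replicate 3 (adjusted p = 0.104) and with the smooth muscle score (0.338).

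Glce (10594289), the epimerase that makes iduronic acid in heparan sulphate, went the other way. It read 318, 342 and 333 in ATRA, 617, 469 and 556 in LE540 and 364, 397 and 368 in DMSO arrays, again without overlap between any 2 groups. Over all probe sets 6.24% had ATRA arrays wholly below LE540 arrays. Glce fell in ATRA relative to LE540 (log2 difference -0.72, SE 0.12, adjusted p = 0.056), and differed by -0.19 in ATRA vs DMSO (adjusted p = 0.999) and by 0.53 in LE540 vs DMSO (adjusted p = 0.328). This call was lost on leaving out any of the ATRA arrays, any of the DMSO arrays or LE540 replicate 1, with only the 2 groups compared, and with the smooth muscle, endothelial or cardiomyocyte score. Glce passed under 11 of 23 settings, and its adjusted p reached 0.467. Over the 18 genes the median difference in ATRA vs LE540 was 0.17, with 13 higher and 5 lower, where 43.1% of all probe sets were higher.

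No member of the other pathway lists passed in any comparison (limma, adjusted p of 0.284 or more). The 17 other FGF ligands had a median log2 difference of 0.01 in ATRA vs DMSO and 0.06 in LE540 vs DMSO. In ATRA vs DMSO 0 of the 17 had an unadjusted limma p under 0.05, where 4.7% of all probe sets did. In LE540 vs DMSO 1 of the 17 did (Fgf21), where 8.8% of all did. Fgf21, the hormone-like FGF of starvation and cell stress, averaged 76.8 ± 9.33 in ATRA, 106.5 ± 18.6 in LE540 and 68.7 ± 6.06 in DMSO arrays (SD, n = 3 each), with a log2 difference of 0.62 in LE540 vs DMSO (SE 0.15, adjusted p = 0.375). Fgf16 and Fgf12 had the smallest p of these ligands in ATRA vs DMSO, with log2 differences of 0.22 and 0.15 (adjusted p = 0.999 each). Fgf16 averaged 69.4 ± 9.22 in ATRA and 59.3 ± 6.39 in DMSO arrays, and Fgf12 61.7 ± 4.51 in ATRA and 55.5 ± 3.87 in DMSO arrays (SD, n = 3 each). The Fgf12 means and the DMSO mean of Fgf16 lie near the lower quartile of the arrays, where signal over background is unknown. Fgf21 was also dim. Its DMSO arrays (61.79 to 73.05) read little above that quartile, and its 3 group means lay below the median of every array (123.61 or more). Of the 8 other receptors and co-receptors, Flrt2, a membrane protein of a family that binds FGF receptors, averaged 1645 ± 544 in ATRA, 902 ± 180.1 in LE540 and 1091 ± 25.9 in DMSO arrays. Its log2 difference was 0.83 in ATRA vs LE540 (SE 0.24, adjusted p = 0.284), 0.54 in ATRA vs DMSO and -0.30 in LE540 vs DMSO. Flrt1 of the same family was at -0.22 in ATRA vs DMSO (adjusted p = 0.999).

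The intracellular relay, of which 10 of 16 listed genes were analysed here, had medians of 0.02 in ATRA vs DMSO, 0.05 in LE540 vs DMSO and -0.09 in ATRA vs LE540. Map2k2, a kinase that phosphorylates ERK, averaged 273 ± 14.2 in ATRA, 315 ± 44.0 in LE540 and 240.3 ± 26.8 in DMSO arrays, at 0.19 in ATRA vs DMSO and 0.39 in LE540 vs DMSO (adjusted p = 0.535). Sos1, the exchange factor that loads Ras with GTP, was at -0.18 in ATRA vs DMSO (adjusted p = 0.999).

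Other genes that report FGF-ERK activity are its inhibitors and its transcriptional readouts. Of the 10 other feedback inhibitors 4 were higher and 6 lower in ATRA vs DMSO (median -0.06), where 48.5% of all probe sets were higher. There were 7 higher and 3 lower in LE540 vs DMSO (median 0.06), where 54.7% of all were higher, and 3 higher and 7 lower in ATRA vs LE540 (median -0.10), where 43.1% were. Dusp6, the ERK phosphatase induced by FGF signalling, read 209.9, 343 and 241 in ATRA, 291, 512 and 339 in LE540 and 299.6, 486 and 320 in DMSO arrays, with replicate 2 the highest of each group. Its log2 difference was -0.48 in ATRA vs DMSO (SE 0.28, adjusted p = 0.999), 0.04 in LE540 vs DMSO (adjusted p = 0.976) and -0.51 in ATRA vs LE540 (adjusted p = 0.611). At each replicate number the ATRA array of Dusp6 read below its LE540 and DMSO arrays, a pairing that this fit does not use. Spred3, a Sprouty-related inhibitor, was at 0.24 in ATRA vs DMSO, and Dusp5, another ERK phosphatase, at 0.26 in LE540 vs DMSO (adjusted p = 0.647).

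Of the 10 transcriptional readouts 4 were higher and 6 lower in both comparisons with DMSO, and 3 higher and 7 lower in ATRA vs LE540 (median -0.23). Phlda1, a growth factor-induced gene, averaged 581 ± 90.8 in ATRA, 368 ± 106.5 in LE540 and 362 ± 49.1 in DMSO arrays, at 0.68 in ATRA vs DMSO (SE 0.23, adjusted p = 0.914). Fos, an immediate early factor, was at -0.53 in ATRA vs DMSO (adjusted p = 0.999) and Myc, a growth-promoting factor, at 0.98 in LE540 vs DMSO (SE 0.41, adjusted p = 0.558). The largest differences of the list in ATRA vs LE540, named after their values were seen, were those of Egr1, an immediate early factor, at -0.96 (SE 0.32, adjusted p = 0.363), of Myc at -0.89 (SE 0.41, adjusted p = 0.555) and of Phlda1 at 0.69 (SE 0.23, adjusted p = 0.366). For Egr1 and Myc the ATRA arrays lay wholly below the LE540 arrays, as for 6.24% of all probe sets, and for Phlda1 wholly above. The ETS factor genes Etv1, Etv4 and Etv5, textbook FGF targets also named after their values were seen, were at -0.38, 0.02 and -0.25 in ATRA vs DMSO and at -0.29, -0.02 and -0.09 in LE540 vs DMSO (adjusted p of 0.728 or more).

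**Figure D5:**
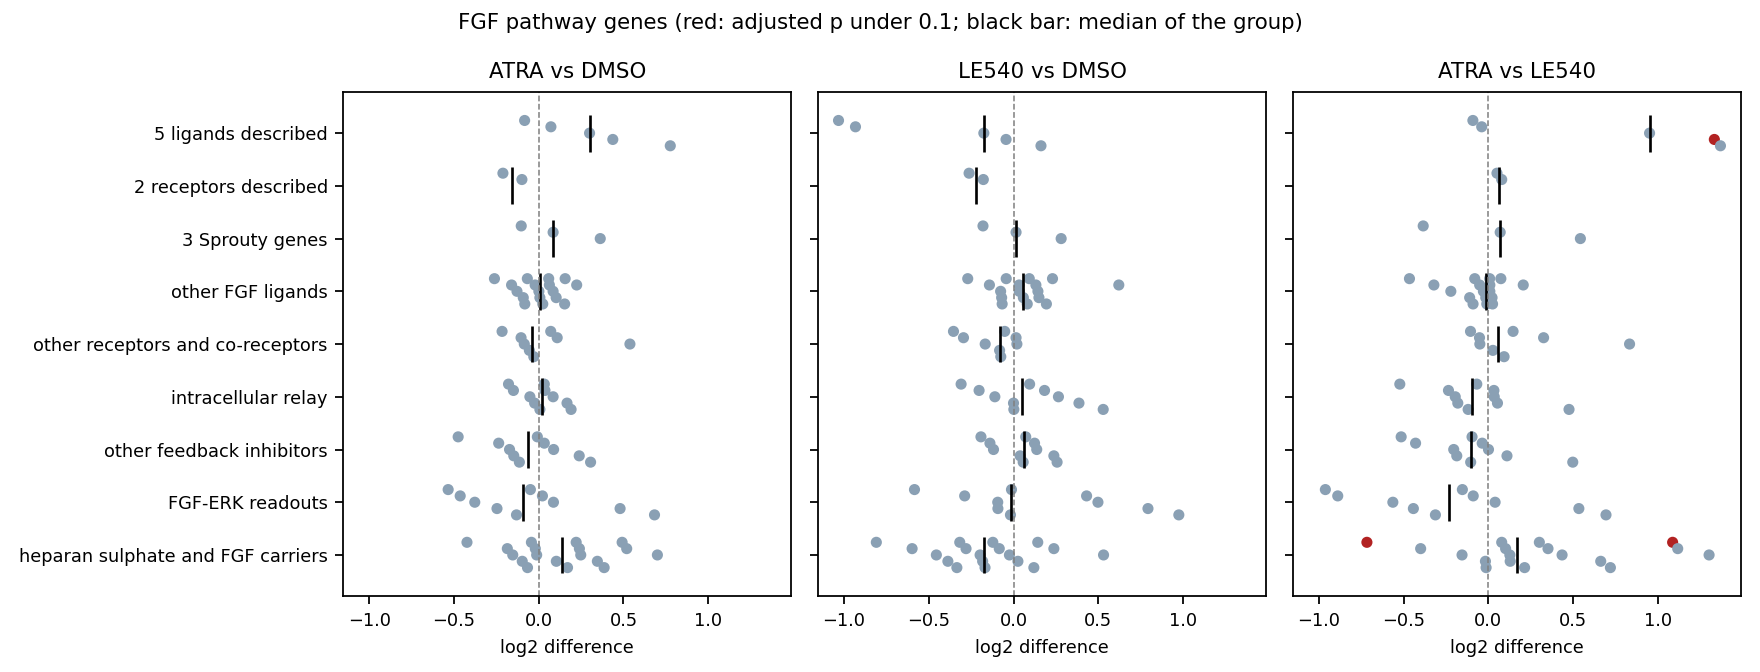
Log2 differences of single genes (points) of the FGF pathway by list, with a panel for each comparison, list medians as black bars and genes with an adjusted p under 0.1 in red. The 3 red points, all in ATRA vs LE540, are Fgf2 (1.33), Sulf2 (1.09) and Glce (-0.72).

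The genes whose pattern over the 9 arrays was most like that of Fgf7, the gene with the widest range of group means, were Kmt2b (Pearson r = 0.972), Abcc9 (0.961) and Trp53i11 (0.959), among 11723 probe sets above the array median. All of them peak on ATRA replicate 2, as Fgf7 does. For Fgfr1, taken by the rule for its mean intensity, they were Kat6a (0.969), Med12 (0.965) and Crtc3 (0.958). These are descriptions over 9 arrays that share treatments and a normalization.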

How the data were processed

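Per the submitters' processing notes, the authors used Affymetrix Expression Console 1.1 and RMA, which corrects background, normalizes arrays and summarizes probe sets. The deposited values are intensity values on a linear scale (4.09 to 17798), so log2 was taken before testing. Precision is limited by 3 arrays per group. The labels name Nugen kits for amplifying and labelling the total RNA. Annotation and genome build of the processing are not given in the sources used here.

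Of 28270 rows, 23397 had a gene symbol (21780 a single one) and entered the limma 3.58.1 fit (R 4.3.3): 1 model with 3 groups over 9 arrays, 6 residual and 2.725 prior degrees of freedom, two-sided, called at an adjusted p under 0.1, the false discovery rate of the series' design text, which adds a fold over 2. The members and lists were chosen with earlier results of these data known. All 10 members are named, and of each pathway list its called genes, or else the 2 with the smallest p in ATRA vs DMSO and the 1 in LE540 vs DMSO. Where a listed gene has several probe sets, the brightest stands for it. Likeness was searched for the member with the widest range of group means and that with the highest mean. A score is the mean centred log2 value of a marker list or of 3 Y-linked genes.

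Arrays of equal replicate number deviated together in ATRA vs DMSO (r = 0.143, 0.342 and 0.22) and ATRA vs LE540 (0.261, 0.282 and 0.269), but not throughout in LE540 vs DMSO (0.00946, 0.215 and 0.126). The labels call the replicates biological. The fit was tested on simulated data. Alternatives covered the arrays fitted, the block, normalization, filters, prior, weights, threshold and single arrays.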

Additional observations from a re-analysis of the deposited data

How the results depend on the processing

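Over the 10 genes, 3 comparisons and 23 alternative settings (19 planned, and 4 covariates chosen after seeing the data), 674 of 690 differences kept their direction and 16 changed sign; none of those 16 passed. The number of the 10 genes that passed was 0 in ATRA vs DMSO and 0 in LE540 vs DMSO under every setting. In ATRA vs LE540 it was 1, but 0 with only the 2 groups compared, with the smooth muscle score or with the cardiomyocyte score, and 0 to 2 on leaving out single arrays (0 without ATRA replicate 3 or LE540 replicate 1, 2 without LE540 replicate 3). With the replicate block Fgf2 passed in ATRA vs LE540 (adjusted p = 0.0162), and the block changed no other call of the 10 genes.

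Sign changes were as follows (log2 differences). For ATRA vs DMSO, Fgf7 was -0.481 without ATRA replicate 2 (-0.481 to 0.996 without single arrays) and -0.344 with the endothelial score, Fgf9 -0.003 with the Y-linked score and Spry2 0.109 with the endothelial score. Fgfr2 was 0.060 without ATRA replicate 2, 0.038 without DMSO replicate 3 (-0.297 to 0.060 without single arrays) and 0.111 with the endothelial score. For LE540 vs DMSO, Spry1 was -0.038 without LE540 replicate 3, -0.022 without DMSO replicate 3 (-0.038 to 0.062 without single arrays) and -0.034 with the Y-linked score, and Spry2 -0.048 without LE540 replicate 1 (-0.048 to 0.464). For ATRA vs LE540, Fgfr1 was -0.014 with array weights and -0.035 without LE540 replicate 1 (-0.035 to 0.138), and Fgfr2 -0.020 without ATRA replicate 1, -0.048 without LE540 replicate 2 (-0.048 to 0.264) and -0.056 with the Y-linked score. The cause was not tested.

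The count over all probe sets moved more. In ATRA vs DMSO (19) it was 9 with only the 2 groups compared, 29 with the replicate block, 12 with 1 probe set per gene, 71 with array weights, 8 at an adjusted p under 0.05, 7, 3, 12 and 5 with the Y-linked, smooth muscle, endothelial and cardiomyocyte scores, and 4 to 22 without single arrays. In LE540 vs DMSO (7) it was 1 with only the 2 groups compared, 1 with the replicate block, 0 after quantile normalization, with all rows tested, at an adjusted p under 0.05 or with the smooth muscle or cardiomyocyte score, and 0 to 297 without single arrays. In ATRA vs LE540 (141) it was 25 with only the 2 groups compared, 221 with the replicate block, 60 at an adjusted p under 0.05, 4 and 48 with the smooth muscle and cardiomyocyte scores, and 54 to 278 without single arrays. Signal over background is unknown for these arrays, which among the 10 genes limits Fgf10 most.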
